A study of Mus musculus with 34 samples.

Results

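A set of 3682 open-chromatin summits appeared in mouse embryonic fibroblasts (MEF) after 1 day of Etv2 induction and was absent from the lists made before induction and from the later ones. A summit is the position where the signal of an ATAC-seq peak, or of a portion of a broad peak, is highest. The 3682 summits were chosen from the 50015 of the day-1 induced list on chromosomes 1 to 19 and X, of which they were 7.36%. Each had no summit within 250 bp in 5 uninduced MEF lists, in the induced MEF lists of day 2, of day 7 and of Flk1-positive cells on day 7, or in the list of induced embryoid bodies (EB). The choice rested on membership of these 9 lists, so the absence from them is how the summits were selected and not a result. They are called transient summits here, in the sense of list membership.

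ATAC-seq, which uses a transposase to cut and tag accessible DNA, was run on 34 samples in 17 groups of 2. The induced groups without knockdown were iHA-Etv2 MEF, which carry a doxycycline-inducible Etv2, given doxycycline for 1, 2 or 7 days, with the last group also sorted for Flk1. The knockdown groups were MEF with Brg1 knockdown, given doxycycline for 1, 2 or 7 days, against the same knockdown MEF without doxycycline on days 0, 1, 2 and 7. Induced EB were profiled at 12 h, unsorted or Flk1-positive, against EB without doxycycline at 12 h. Brg1-floxed EB, all given doxycycline, were profiled on day 4 with 4OHT against the same line without it. The remaining control was MEF without doxycycline and without knockdown (day 0), so 4 of the 5 uninduced MEF lists carry the knockdown. The labels give no promoter or clone for the transgene, no knockdown reagent or efficiency, and no recombinase for the floxed line. They do not say whether replicates came from separate cultures. In such bulk samples, fewer cells with an open site and less opening per cell cannot be told apart.

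Etv2 is an ETS-family transcription factor that directs mesoderm towards vessels and blood, and ETS proteins bind DNA around a GGAA core. Brg1, encoded by Smarca4, is the ATPase of the SWI/SNF complexes, which move nucleosomes. In fibroblasts, many open regions away from promoters carry AP-1 or TEAD sites.

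The deposited lists hold the position and score of each summit and no reads. Each score is a q value from peak calling as its −log10, and the lowest, 1.3, corresponds to a q value of 0.05. The lists held between 11188 and 85498 summits. Induced MEF had 50015 on day 1, 26217 on day 2, 18418 on day 7 and 29520 in Flk1-positive cells on day 7. The later MEF lists were thus shorter than the day-1 list, while that of MEF without doxycycline and without knockdown was longer, at 62028. The part of list length in the absence of transient summits from the later lists was not tested. The number of summits stands in for depth, which was not analysed here. In the day-1 list, 39 of 48 fibroblast marker genes had a summit within 1 kb of a gene end, against 41 of 48 in uninduced MEF. For endothelial markers the counts were 21 of 50 at day 1 and 23 of 50 uninduced, for haematopoietic markers 5 of 22 and 6 of 22, for epithelial markers 1 of 12 in both lists, and for cardiac markers 1 of 19 and 3 of 19. Skeletal muscle markers had 3 of 12 and 2 of 12, macrophage markers 6 of 12 and 5 of 12, and neural markers 6 of 20 in both lists. Over all protein-coding genes the shares were 51.8% at day 1 and 54.7% uninduced, above those of the endothelial markers (42% and 46%). Each pooled list merges both replicates of its group, so comparisons between these lists have no replicate check. Intervals below are exact Clopper-Pearson 95% intervals and cover counting error only.

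The DNA under the transient summits could be read only where a summit lay in a RefSeq promoter window, the 250 bases before and 50 bases after a gene start in GRCm38.p6 (mm10). Of the 3682 summits, 45 lay in such a window, and 33 of these 45 genes were protein-coding. Capitals mark the ETS cores CAGGAA and CCGGAA, searched on both strands, so that a core on the opposite strand reads TTCCTG or TTCCGG. All 7 windows below were chosen after their values were seen, and each is printed 5′ to 3′ in the direction of its gene. The first 3 are shown because their summits lay over 1 kb from every summit of the 9 lists and their windows held ETS cores. They are Gm11714 (chr11:107428000-107428299, plus strand), Gm31452 (chr13:107063407-107063706, plus strand) and Mapk14 (chr17:28692318-28692617, plus strand), which encodes the stress kinase p38 alpha. Gm11714 and Gm31452 are not protein-coding.
Gm11714: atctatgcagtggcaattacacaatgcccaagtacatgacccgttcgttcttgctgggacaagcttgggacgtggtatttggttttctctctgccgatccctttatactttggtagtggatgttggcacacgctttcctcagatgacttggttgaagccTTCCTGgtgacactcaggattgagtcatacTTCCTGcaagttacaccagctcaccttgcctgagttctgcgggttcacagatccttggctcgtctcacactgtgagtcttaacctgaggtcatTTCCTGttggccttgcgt
Gm31452: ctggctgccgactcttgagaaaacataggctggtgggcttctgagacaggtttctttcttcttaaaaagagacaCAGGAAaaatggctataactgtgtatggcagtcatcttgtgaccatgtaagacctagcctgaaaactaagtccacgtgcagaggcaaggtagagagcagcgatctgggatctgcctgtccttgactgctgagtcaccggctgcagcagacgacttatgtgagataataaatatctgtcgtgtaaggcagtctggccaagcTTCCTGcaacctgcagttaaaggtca
Mapk14: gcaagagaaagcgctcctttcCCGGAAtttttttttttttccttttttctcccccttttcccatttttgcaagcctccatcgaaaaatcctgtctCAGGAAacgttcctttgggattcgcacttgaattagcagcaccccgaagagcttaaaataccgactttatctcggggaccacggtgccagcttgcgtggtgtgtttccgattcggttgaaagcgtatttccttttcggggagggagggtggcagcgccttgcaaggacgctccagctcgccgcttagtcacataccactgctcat

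The summit at Gm11714 scored 9.0 and lay 10 bases after the gene start, with 3 cores in the window, the nearest starting 22 bases after the summit. The summit at Gm31452 scored 7.04, and a core started 2 bases before it. The summit at Mapk14 scored 3.66, 185 bases before the gene start, and had a partner in induced knockdown MEF on day 2. None of these 3 had a partner within 250 bp in the other induced knockdown lists.

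The next windows are shown for their scores and their partners. Septin7 (chr9:25251741-25252040, plus strand) encodes a cytoskeletal GTPase and held the highest-scoring summit of the 45, at 28.6. Prdm11 (chr2:93046116-93046415, minus strand) encodes a PR-domain protein, with a core 18 bases before its summit, read along the gene. 4931406C07Rik (chr9:15301558-15301857, minus strand) had partners in induced knockdown MEF on days 1 and 2. Col4a1 (chr8:11312777-11313076, minus strand) encodes a basement-membrane collagen chain, and its window held no core. In the order given, the summits of these windows lay 296, 298, 275 and 294 bp from the nearest of the 9 lists.
Septin7: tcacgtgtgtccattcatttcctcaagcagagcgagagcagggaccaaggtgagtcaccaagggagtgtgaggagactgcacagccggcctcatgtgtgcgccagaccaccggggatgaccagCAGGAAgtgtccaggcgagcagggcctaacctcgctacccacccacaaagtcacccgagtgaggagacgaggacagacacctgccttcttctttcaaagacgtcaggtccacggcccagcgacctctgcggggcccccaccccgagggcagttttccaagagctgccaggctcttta
Prdm11: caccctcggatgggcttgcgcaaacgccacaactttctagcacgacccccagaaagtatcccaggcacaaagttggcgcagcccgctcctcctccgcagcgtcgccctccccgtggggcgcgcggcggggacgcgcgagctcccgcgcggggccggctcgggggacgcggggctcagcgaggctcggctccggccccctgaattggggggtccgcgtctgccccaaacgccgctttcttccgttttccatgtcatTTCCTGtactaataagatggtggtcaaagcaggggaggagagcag
4931406C07Rik: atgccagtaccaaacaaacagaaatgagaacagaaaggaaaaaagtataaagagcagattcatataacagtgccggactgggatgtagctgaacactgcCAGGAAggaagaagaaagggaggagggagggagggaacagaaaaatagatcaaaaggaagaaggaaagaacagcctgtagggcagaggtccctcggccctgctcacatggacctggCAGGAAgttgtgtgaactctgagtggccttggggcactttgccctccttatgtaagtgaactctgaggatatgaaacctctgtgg
Col4a1: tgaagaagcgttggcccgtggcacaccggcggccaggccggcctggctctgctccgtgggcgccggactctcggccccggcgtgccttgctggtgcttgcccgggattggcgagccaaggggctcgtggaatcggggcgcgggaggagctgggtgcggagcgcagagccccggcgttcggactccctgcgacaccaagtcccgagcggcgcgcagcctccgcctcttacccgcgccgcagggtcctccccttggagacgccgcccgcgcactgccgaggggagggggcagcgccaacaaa

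Of the 45 windows, 23 held CAGGAA or CCGGAA, 51.1% (35.8 to 66.3%), against 50.3% of the 7795 windows with any day-1 summit and 41.3% of all 32619 windows. CAGGAA was in 19 of 45 windows of transient summits, 42.2% (27.7 to 57.9%), against 25.2% of day-1 windows and 30.4% of all windows. With MEF without doxycycline and without knockdown as the only uninduced list, CAGGAA was in 22 of 81 windows, 27.2% (17.9 to 38.2%), an interval that held the 25.2% of day-1 windows. CCGGAA was in 7 of 45, 15.6% (6.49 to 29.5%), against 33.7% of day-1 windows and 15% of all windows. The longer forms CAGGAAGT and CCGGAAGT, which contain these cores, were in 4 and 2 of the 45. The AP-1 letters TGANTCA were in 6 of the 45 windows, 13.3% (5.05 to 26.8%), against 5.57% of day-1 windows and 7.85% of all windows.

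The 11 windows whose summit lay over 1 kb from the 9 lists held these letters more often than the other 34, with intervals that overlapped. ETS cores were in 9 of the 11 (81.8%, 48.2 to 97.7%) and in 14 of the 34 (41.2%, 24.6 to 59.3%). TGANTCA was in 4 of the 11 and in 2 of the 34. Base composition moved with this split, with a median GC of 48.7% in the 11 windows and 59.5% in the 34, against 62.7% in day-1 windows and 53% in all windows, and its part in the shares was not tested. Gene type moved with it too. Not protein-coding among the 11 were Gm11714, Gm31452, Gm52671, Gm51651, Gm39888, Gm30476 and Gm13387. Among the 34 they were Hk1os, Gm36411, Gm35290, Gm40403 and Gm36618. The part of gene type in the shares was not tested. A match to these letters is a description of the window and not a bound site.

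Most transient summits were weak peaks. Their median score was 3.56 and 90% of them lay between 1.66 and 9.69, with a highest score of 36.2. Day-1 summits that were absent from the 5 uninduced lists and kept in a later MEF list (2009, called kept here) had a median of 5.22, and day-1 summits present before induction (43522) had a median of 10.5. Scores under 5 made up 72.5% of transient summits and 48.0% of kept summits. Transient summits took 23.5% of day-1 summits with scores under 3, 15.2% of those from 3 to 5, 6.88% of those from 5 to 10, and 0.695% (162 summits) of those of 10 or more. Membership of lists with the same score limit chose the set, so these values describe it and were not tested.

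**Figure D1:**
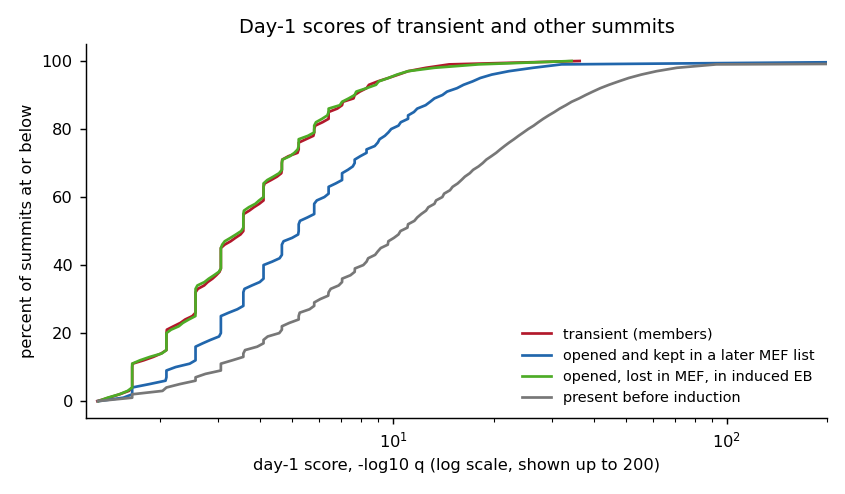
Cumulative share of summits (vertical axis, percent) at or below a day-1 score (horizontal axis, −log10 q on a log scale) for transient summits, kept summits, summits found again only in induced EB and summits present before induction. The transient curve runs with the EB curve (medians 3.56 and 3.51) and left of the kept summits (5.22) and of those present before induction (10.5).

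The scores also fell on a few repeated values, which appear as steps in the plot of cumulative scores. The 12 values commonest among transient summits, from 1.66 to 7.68, held 1970 of them, 53.5%. They held 45.9% of kept summits and 21.6% of summits present before induction. The values were picked on the transient summits and lie below the median of 10.5 of summits present before induction. The choice of values thus fixes these contrasts in part. The read counts behind these scores were not analysed here.

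Distance to the 9 lists split the set into a near and an isolated portion. Of the transient summits, 1640 (44.5%) lay within 1 kb of a summit of the 9 lists and 2042 lay farther away. The limit of 1 kb was chosen after the data were seen. In 501 cases (13.6%) the nearest such summit was only 251 to 300 bp away, just past the limit, and 34 summits lay over 50 kb from all 9 lists. The median distance was 1586 bp. Uninduced MEF lists had a summit within 1 kb of 1417 transient summits (38.5%).

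**Figure D2:**
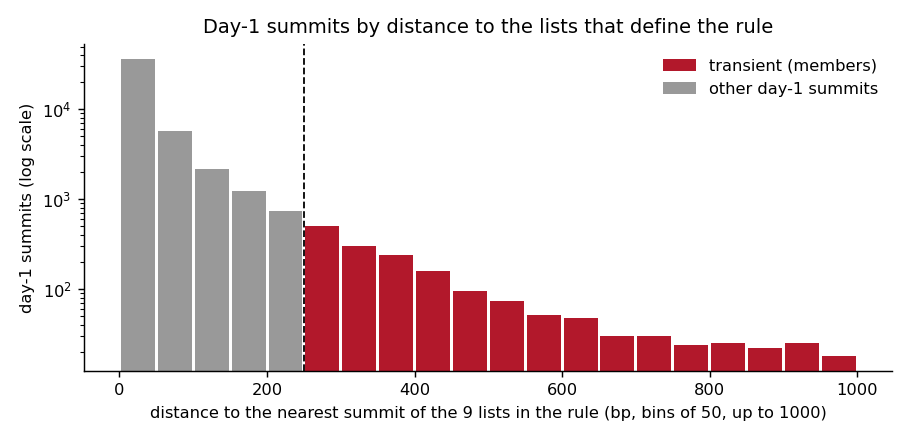
Number of day-1 summits (vertical axis, log scale) by distance to the nearest summit of the 9 lists of the rule (horizontal axis, bins of 50 bp up to 1000 bp), with the 250-bp limit as a dashed line. The counts fall smoothly across the limit, from 743 summits at 201 to 250 bp to 501 transient summits at 251 to 300 bp.

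The split by distance goes with peak shape, and in part fixes it, since isolated summits have no listed summit within 1 kb. Peaks with more than 1 summit held 62.1% of the near summits and 5.83% of the isolated ones, and 30.9% of all transient summits against 36.7% of all day-1 summits. In 57.6% of near summits the day-1 peak held another summit that was present in an uninduced list. This was so for only 2 of the 2042 isolated summits. Just within the 250-bp limit, the 743 day-1 summits at 201 to 250 bp had a median score of 3.59. Just past it, the 501 transient summits at 251 to 300 bp had 3.56.

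The near and isolated summits also lay at different places relative to genes, which the split by distance again fixes in part. In MEF without doxycycline and without knockdown, 54.7% of protein-coding genes had a summit within 1 kb of a gene end. Isolated summits, by definition, lay over 1 kb from each of those summits. Gene ends (within 1 kb) held 453 transient summits, 12.3% (11.3 to 13.4%), against 28.7% of all day-1 summits and 13.5% of kept summits. Among near summits the share was 23.7%, and among isolated summits it was 3.18% (2.47 to 4.04%). Of all transient summits, 51.3% lay inside a protein-coding gene and 18.7% lay over 50 kb from any, against 49.3% and 22.6% of kept summits.

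Recurrence was then counted in lists that the rule did not use. These lists are not independent of it, since the induced knockdown lists come from the same knockdown MEF as 4 of the 5 uninduced lists, and 43522 of the 50015 day-1 summits, the comparator for all, were present before induction. In induced knockdown MEF on day 1, 211 transient summits had a partner within 250 bp, 5.73% (5.00 to 6.53%), against 21.5% of kept summits and 43.4% of all day-1 summits. On day 2 of the knockdown series 390 had a partner, 10.6% (9.62 to 11.6%), against 34.6% of kept summits and 55.9% of all. On day 7 it was 78, 2.12% (1.68 to 2.64%), against 13.7% of kept summits and 15.9% of all. In each of these 3 lists the interval of transient summits lay below that of kept summits. Kept summits had themselves been chosen for recurring in another list, and no test was run. A closer comparator is the 802 day-1 summits that differed from transient ones only by a partner in the unsorted induced EB list. Of these, 6.48% (4.88 to 8.42%) had a partner on day 1 and 15.2% (12.8 to 17.9%) on day 2. On day 7 it was 1.87% (1.05 to 3.07%), so on days 1 and 7 their intervals overlapped those of transient summits. As a scale for these shares, the bases within 250 bp of a summit of each list covered 0.496%, 0.708% and 0.245% of the span of the chromosomes on days 1, 2 and 7.

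**Figure D3:**
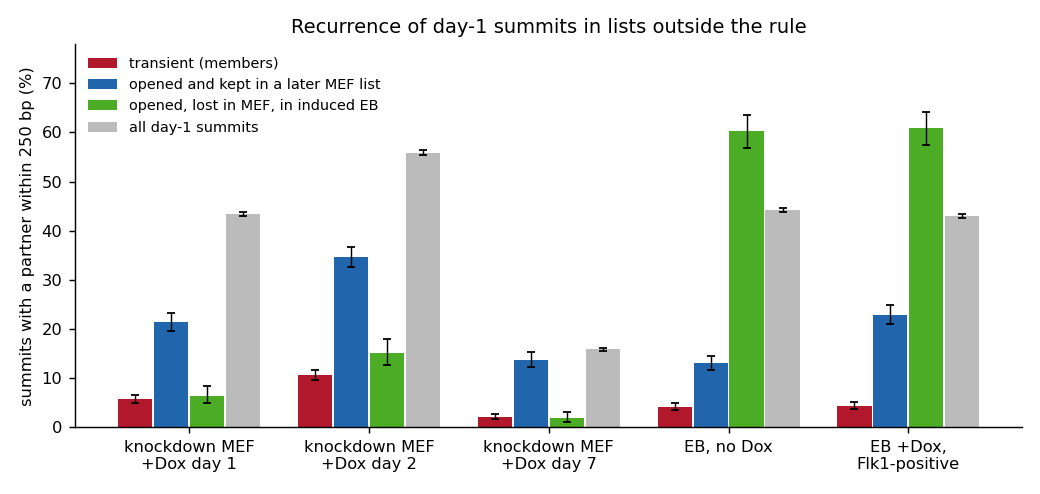
Share of day-1 summits (vertical axis, percent) with a partner within 250 bp in 5 lists outside the rule, for transient summits, kept summits, summits found again only in induced EB, and all day-1 summits, with exact 95% intervals. Transient summits sit at 5.73%, 10.6% and 2.12% in the knockdown MEF lists of days 1, 2 and 7, below kept summits at 21.5%, 34.6% and 13.7%. Summits found again only in induced EB sit at 6.48%, 15.2% and 1.87% in those lists.

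Isolated summits recurred in 2.94% (60 summits) on day 1, 9.30% (190) on day 2 and 0.588% (12) on day 7, against 9.21%, 12.2% and 4.02% of near summits. In the knockdown MEF lists, 596 transient summits (16.2%) had a partner on at least 1 day, against 64.1% of all day-1 summits. On day 2 only there were 312, on day 1 only 134, on days 1 and 2 only 72, and on all 3 days 1. The largest share fell on day 2, the list with 37772 summits, against 26882 on day 1 and 13644 on day 7, so the shares followed the order of list length, whose part in them was not tested.

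The difference from kept summits, which were chosen for recurring in a later MEF list, was present in each score range. Among summits with scores under 3, 3.69% of transient and 11.8% of kept summits had a partner in the day-1 knockdown list, and among those of 10 or more it was 14.8% and 38.3%. In the day-2 knockdown list the shares were 7.31% and 22.6% under 3, and 16% and 53.9% at 10 or more. Both classes had larger shares at higher scores. The knockdown lists give scores with fewer digits than the other MEF lists, a sign of other processing, so an effect of knockdown cannot be told apart from processing, and these shares measure only which places were called again.

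**Figure D4:**
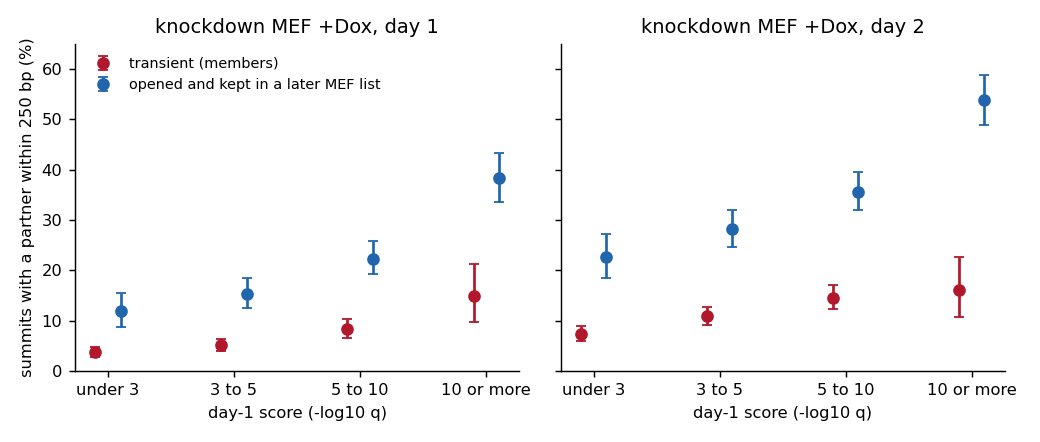
Share of summits with a partner (vertical axis, percent) in the induced knockdown MEF lists of day 1 (left) and day 2 (right) by day-1 score (horizontal axis), for transient and kept summits, with exact 95% intervals. In each score range transient summits sit below kept summits, from 3.69% and 11.8% in the lowest to 14.8% and 38.3% in the highest on day 1. Kept summits were chosen for recurring in a later MEF list.

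In EB the shares were small. Without doxycycline, 154 transient summits (4.18%, 3.56 to 4.88%) had a partner, against 13% of kept and 44.2% of all day-1 summits. In Flk1-positive induced EB it was 161 (4.37%, 3.74 to 5.08%), against 22.9% of kept and 43% of all. Isolated summits recurred in 2.2% (1.61 to 2.94%) and 1.47% (0.993 to 2.09%), beside the 1.60% and 1.07% of the span that lies within 250 bp of those lists' summits. Absence from the unsorted induced EB list was part of the rule for transient summits and not for kept ones, so the gap to kept summits depends on the rule. Without that list in the rule, 14.2% (13.2 to 15.3%) of 4484 summits had a partner in EB without doxycycline and 14.5% (13.5 to 15.5%) in Flk1-positive EB, against 13% and 22.9% of kept summits. The 802 day-1 summits that differed from transient ones only by a partner in that list had partners in 60.2% and 60.8%.

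In Brg1-floxed EB, whose lists are per sample, 0.842% and 1.36% of transient summits had a partner with 4OHT, against 1.96% and 1.14% without it. The 4OHT samples averaged 1.10% ± 0.365 and the samples without 4OHT 1.55% ± 0.576 (SD, n = 2 each), and the groups overlapped. The difference of -0.448 percentage points gave p = 0.667 in an exact two-sided permutation test, which with 2 samples against 2 cannot go below 0.333. Over all day-1 summits 4OHT samples held 25.4% and 26.7%, a mean of 26%, and the others 31% and 28.4%, a mean of 29.7% (exact permutation p = 0.333, the smallest possible).

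The strongest transient summits, by score, included both kinds. The highest, at chrX:159137217, scored 36.2, lay in a peak of 7 summits and was 294 bp from a summit of uninduced knockdown MEF, with Rps6ka3, a growth-factor-activated kinase gene, as the nearest protein-coding gene 118448 bp away. Next came Septin7 at 28.6 and Hk1, the gene of a hexokinase, at 28.2 inside the gene. These lay 296 bp and 289 bp from summits of uninduced knockdown MEF, in peaks of 3 and 2 summits. The Hk1 summit had partners in induced knockdown MEF on days 2 and 7 and in Flk1-positive EB. The strongest isolated summit scored 26.7 at chr1:22422297, inside Rims1, the gene of a presynaptic scaffold protein, and lay 35031 bp from the nearest of the 9 lists with no partner in the 5 lists outside the rule. The remaining summits among the 15 highest ranged down to 19.7, and their nearest genes were Gm39701, Vmn1r41, Smo (the transducer of Hedgehog signals), Aga, Nap1l4, Otor, Diaph3, Slc35b3, Dach1, Slc5a12 and 4930519L02Rik.

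The summit nearest to Diaph3 had partners in induced knockdown MEF on days 1 and 2. It scored 23.1 at chr14:86233496, 421861 bp from Diaph3, a formin gene, and 5605 bp from the 9 lists. The partners lay 41 bp away on day 1 and 4 bp away on day 2. It was 1 of 30 isolated summits with a partner on both days. Others of the 30, chosen after their values were seen, were inside Cyth1 (score 15.4, partners at 84 bp and 84 bp), a guanine-nucleotide exchange factor gene, and inside Macf1 (11.8, at 73 bp and 80 bp), the gene of a cytoskeletal linker. The Msi2 summit at chr11:88485283 scored 9.69, with partners at 114 bp on day 1 and 71 bp on day 2. Msi2 encodes an RNA-binding protein of stem cells. The only transient summit with a partner on all 3 days was the one at Col4a1, which also lay inside the neighbouring Col4a2. It scored 4.04 and lay 294 bp from a summit of uninduced MEF.

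Some genes gathered several transient summits. Sash1 and Lrig1 had 6 each within 50 kb, and Plcb1, Kcnab1, Msi2, Tmeff2, Syn3, Srfbp1, Myo1d and Alk had 5 each. Lrig1 encodes a negative regulator of growth-factor receptors, and its 6 scores ranged from 1.66 to 7.18. These genes had 12 to 23 day-1 summits in that window, against a median of 4 over all protein-coding genes. The window includes the gene itself, and their lengths ran from 26303 bp (Srfbp1) to 735715 bp (Alk). Over all protein-coding genes the median length was 17329 bp, and the part of length in these counts was not tested. Of the 3682 summits, 220 (5.98%) had another transient summit within 1 kb.

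For gene lists, the share of genes with a transient summit within 50 kb is read against 23.9% of all 21631 protein-coding genes. The lists were chosen with earlier results of these data known, so they are described by counts. Endothelial genes were close to that background, with 14 of 50 (28.0%, 16.2 to 42.5%), and haematopoietic genes had 7 of 22 (31.8%, 13.9 to 54.9%). Fibroblast genes had 18 of 48 (37.5%, 24.0 to 52.6%), the only interval of the 12 that lay above 23.9%, and by a small margin. With isolated summits only, fibroblast genes had 10 of 48 (20.8%, 10.5 to 35.0%), an interval that held the 12.6% of all protein-coding genes with an isolated summit within 50 kb. Epithelial genes had 5 of 12 with isolated summits (41.7%, 15.2 to 72.3%), an interval above that 12.6%. That interval takes the genes as separate, although Cldn3 and Cldn4 were counted for the same summit, as were Krt8 and Krt18. Fibroblast genes also had more day-1 summits of any kind, a median of 7 against 4. As a share of the day-1 summits near their genes, transient summits made up 6.67% for endothelial, 6.92% for haematopoietic and 6.57% for fibroblast genes, against 6.06% for all. Skeletal muscle (13.04%), epithelial (10.9%), ETS family (8.24%) and SWI/SNF genes (7.30%) also lay above 6.06%. Housekeeping (5.23%), AP-1 and TEAD-YAP (4.55%), cardiac (4.55%), macrophage (3.95%) and neural genes (1.35%) lay below it. The skeletal muscle and epithelial shares rest on counts of 6 and 7, in which a summit near several genes counts for each. The median number of transient summits per gene was 0 for all genes and for each list except skeletal muscle and epithelial (0.5 each). Within 10 kb, 9 of 50 endothelial, 3 of 22 haematopoietic and 11 of 48 fibroblast genes had one, against 11.5% of all genes.

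**Figure D5:**
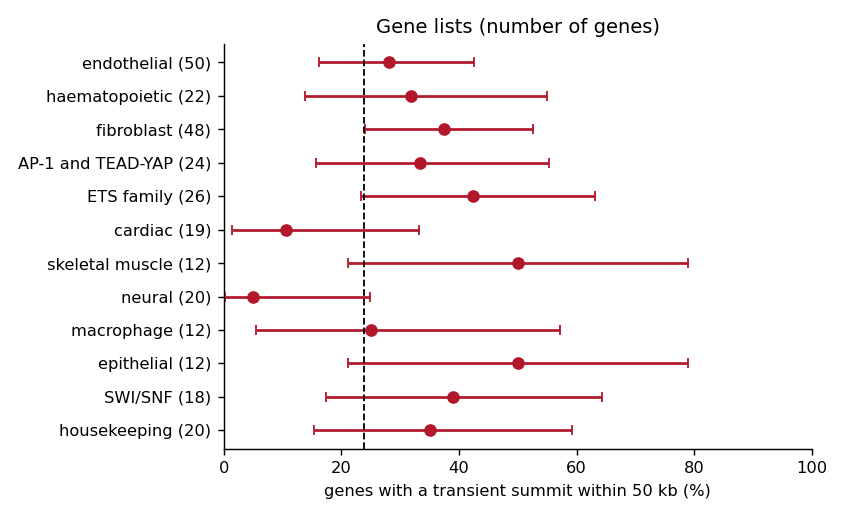
Share of genes with a transient summit within 50 kb (horizontal axis, percent) for the 12 gene lists, with exact 95% intervals and the number of genes in brackets, and the 23.9% of all protein-coding genes as a dashed line. All intervals but that of the fibroblast list (24.0 to 52.6%) reach the line.

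Among endothelial genes, Kdr, which encodes Flk1, had 1 transient summit at chr5:75927985. It scored 7.04, lay 4842 bp downstream of the gene and 5122 bp from the nearest of the 9 lists, that of Flk1-positive MEF on day 7. It had no partner in the 5 lists outside the rule. Flt4, a receptor of lymphatic vessels, had 3, of which the highest scored 7.59 inside the gene. That summit lay 289 bp from a summit of induced EB. The others lay 361 bp and 770 bp from a summit of uninduced knockdown MEF. Cdh5, the junction cadherin of endothelium, had 1 inside the gene at chr8:104110907 (score 8.33), 3612 bp from the nearest list. Vwf, the gene of a clotting factor carrier, had 2 at scores of 4.10 and 3.34, and Notch4 had 2 at 2.87 and 2.45. The Vwf summits lay 1722 bp and 1786 bp from the 9 lists, and the Notch4 summits 316 bp and 3281 bp. Ets1, a related ETS factor, had 2 inside the gene at 3.09 and 1.99, which lay 1526 bp and 932 bp from the 9 lists. Etv2 itself had 0.

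Among blood genes, Spi1, an ETS factor of myeloid cells, had 1 summit 16537 bp outside the gene that scored 9.0 and lay 16907 bp from the 9 lists. Runx1, a factor needed for blood stem cells, had 2, at 3.56 and 4.35, and the second had a partner in induced knockdown MEF on day 1. These Runx1 summits lay 7545 bp and 385 bp from the 9 lists. Itga2b, a platelet integrin gene, had 2 at 3.05 and 4.20, both with a partner in Flk1-positive EB. The first lay only 270 bp and the second 533 bp from a summit of Flk1-positive MEF on day 7. Gfi1b and Myb, factors of blood progenitors, had 1 each, at 4.37 and 3.00, which lay 390 bp and 757 bp from the 9 lists.

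Among fibroblast genes, Fap, a cell-surface protease of activated fibroblasts, held the strongest, at chr2:62563321 with a score of 16.4. It lay inside the gene, 10537 bp from the 9 lists, and had a partner 129 bp away in induced knockdown MEF on day 2. Tagln, a contractile-cell gene, had 1 at 12.3 that lay 49203 bp from the gene and only 252 bp from a summit of uninduced MEF. Fn1, the fibronectin gene, had 2 at 7.04 and 2.56, and the first lay 303 bp from such a summit. Timp3 and Lox, genes of a matrix protease inhibitor and a collagen cross-linking enzyme, had 2 each, at scores of 2.56 to 4.56. These 4 summits were also counted for the overlapping Syn3 and the adjacent Srfbp1.

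In the remaining lists the share of genes with a transient summit ran from 5% to 50%, against 23.9% of all protein-coding genes. AP-1 and TEAD-YAP genes had 8 of 24, led by Wwtr1, the gene of the TAZ coactivator, with 2 summits at 3.05 and 2.17, and Jun had 1 at 4.65. ETS family genes had 11 of 26, among them Elf1 and Etv6 with 2 each. SWI/SNF genes had 7 of 18. Arid1b, a subunit gene, had 3, at 2.22, 3.01 and 4.65, Smarcb1 had 1 at 5.94 with a partner in induced knockdown MEF on day 1, and Smarca4 had 0. Housekeeping genes had 7 of 20, with 2 near Actb (4.04 and 2.35) and 0 near Gapdh. Epithelial and skeletal muscle genes had 6 of 12 each, macrophage genes 3 of 12, cardiac genes 2 of 19 and neural genes 1 of 20. Among skeletal muscle genes, Myf5 and Myf6 were counted for the same summit.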

How the data were processed

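The submitters' processing notes name Bowtie2 2.2.4, MACS2, HOMER and the mm10 build. Trimming, duplicate handling, the transposase shift and any blacklist are not given in the sources used here. The authors deposited summit lists whose score is the −log10 of the q value. For 15 groups (30 samples) both replicates share 1 pooled list, and how they were combined is not given in the sources used here. The 4 Brg1-floxed samples have a list each. Read depth was not analysed here, and scores grow with it, so scores were not compared between lists.

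Summits on chromosomes 1 to 19 and X were matched within 250 bp. Genes came from a RefSeq table of GRCm38.p6 (21631 protein-coding genes), in which all 283 entries of the 12 gene lists (274 distinct genes) were found. Promoter windows covered 32619 genes, and 12 motifs were counted. The transient summits and lists were chosen with earlier results of these data known. Genes were named by rule: nearest to the 15 highest-scoring summits, the 10 with most summits within 50 kb, the 5 with most in each list, and Etv2, Kdr, Smarca4, Gapdh and Actb. Exceptions are stated beside them. The plan to print the sequence of the highest-scoring summits could not be followed, since only promoter windows were at hand. Shares have exact Clopper-Pearson 95% intervals. Only the floxed lists allowed a test, the exact permutation test, whose p measures the spread between samples that may be technical. The matching code was tested on simulated lists. Alternatives changed the matching distance, the score limit, the lists in the rule, list length, the summits kept per peak and the gene window. The split at 1 kb was added after seeing the data. Analysis used Python 3.11.15, scipy 1.17.1, numpy 2.4.6, matplotlib 3.10.9 and pandas 2.3.3.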

Additional observations from a re-analysis of the deposited data

How the results depend on the processing

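The set of transient summits depended on how lists were matched, and shares are given in percent of the summits chosen under each setting. The summits numbered 3682 at a matching distance of 250 bp, 7825 at 100 bp and 2389 at 500 bp. They numbered 491 at equal list lengths. There every list, those outside the rule included, was cut by score to the 11188 summits of the shortest. Partner shares at equal lengths below were thus counted in cut lists. The summits numbered 1014 and 162 with score limits of 5 and 10, and 2042 for the isolated ones. Median scores were 24.0 at equal list lengths, 3.63 at 100 bp, and 6.97 and 12.3 with the score limits. The cut to equal lengths and the score limits themselves raise the median. Other causes of the changes below were not tested.

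Gene ends held 14.5% of the summits with MEF without doxycycline and without knockdown as the only uninduced list, 9.98% at equal lengths, 4.33% with the highest summit per peak, 3.18% of isolated summits, 16.6% and 5.44% at 100 and 500 bp, 16% at a score limit of 10 and 13.6% without the induced EB list. Peaks with more than 1 summit held 37.2%, 6.11%, 5.04%, 5.83%, 42% and 11.2% in the same order up to 500 bp, and 33% and 39.5% at score limits of 5 and 10.

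Partners in induced knockdown MEF on day 1 were found for 9.75% with that single uninduced list, 3.84% with the highest summit per peak, 2.94% of isolated summits, 4.75% and 4.77% at 100 and 500 bp, 9.37% and 14.8% at score limits of 5 and 10, and 7.82% without the Flk1-positive MEF list. On day 2 the shares were 15.5% with the single uninduced list, 9.30% of isolated summits, 8.03% at 100 bp, 14.8% and 16% at the score limits and 15.8% without the Flk1-positive list. On day 7 they were 3.73% with the single uninduced list, 1.02% at equal lengths, 0.588% of isolated summits and 1.38% at a score limit of 5. In EB without doxycycline the shares were 5.81% with the single uninduced list, 1.83% at equal lengths, 2.2% of isolated summits, 3.39% at 500 bp, 2.76% and 3.09% at the score limits, and 14.2% without the induced EB list. In Flk1-positive EB they were 5.45% with the single uninduced list, 2.24% at equal lengths, 2.99% with the highest summit per peak, 1.47% of isolated summits, 2.89% at 500 bp, 5.56% at a score limit of 10 and 14.5% without the induced EB list.

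CAGGAA was in 27.2% of windows with the single uninduced list, 72.7% for isolated summits and 75% at 500 bp. CCGGAA was in 4.76% with the highest summit per peak and in 0 windows at a score limit of 10, and CCGGAAGT was in 0 windows with the highest summit per peak, for isolated summits, at 500 bp and at both score limits. These shares rest on few windows.

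Genes with a summit within 10 kb numbered 9 of 50 endothelial, 3 of 22 haematopoietic and 11 of 48 fibroblast. AP-1 and TEAD-YAP genes had 3 of 24, ETS family genes 7 of 26, SWI/SNF genes 5 of 18 and housekeeping genes 2 of 20. Cardiac genes had 0 of 19, skeletal muscle genes 2 of 12 and neural genes 1 of 20. Macrophage genes had 1 of 12 and epithelial genes 4 of 12, against 11.5% of all protein-coding genes. Within 50 kb of isolated summits lay 10 of 50 endothelial, 3 of 22 haematopoietic and 10 of 48 fibroblast genes. AP-1 and TEAD-YAP genes had 5 of 24, ETS family genes 4 of 26, SWI/SNF genes 4 of 18 and housekeeping genes 3 of 20. Cardiac genes had 1 of 19, skeletal muscle genes 1 of 12, neural genes 0 of 20 and macrophage genes 2 of 12. Over all protein-coding genes the share was 12.6%. Epithelial genes had 5 of 12 (41.7%, 15.2 to 72.3%), the only interval of the 12 lists above that share. Cldn3 and Cldn4 were counted for the same summit, as were Krt8 and Krt18. With a score limit of 10, 2 of 48 fibroblast genes had one, against 1.15% of all protein-coding genes, and the endothelial, haematopoietic, AP-1 and TEAD-YAP, ETS family, cardiac, skeletal muscle, neural, macrophage, epithelial, SWI/SNF and housekeeping lists had 0.

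In the floxed EB, nothing but the number pairs the samples. With the replicate number as a block (replicate block) the difference between 4OHT and no 4OHT stayed at -0.448 percentage points (exact sign-flip p = 1). Leaving out 1 replicate of each group gave values from -1.11 to 0.217, so the sign turned without replicate 1.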

Other observations

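By chromosome, transient summits made up from 5.52% of day-1 summits on X (76 of 1377) to 8.65% on chromosome 15 (203 of 2348), against 7.36% over all. Of the transient summits, 383 (10.4%) had another within 10 kb and 1494 (40.6%) within 100 kb. Where an isolated summit had a partner in induced knockdown MEF, the median offset was 77 bp on day 1 (60 summits) and 68 bp on day 2 (190 summits), and for kept summits it was 83 bp and 60.5 bp. These are descriptions of the lists, and no test was run on them.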
